A study of Mus musculus with 4 samples.

Results

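The genes described here make and mature ribosomal RNA, or belong to RNA polymerase I (Pol I) and RNA polymerase III (Pol III). They were chosen as a fixed list of 43 symbols: 23 polymerase subunits and initiation factors, and 20 nucleolar and processing factors. The deposited table holds 30049 genes, and 40 of the 43 symbols have a row in it. The expression of Polr1a, Gtf3c2 and Nop2 was not analysed here. The values are TPM, an estimate of transcript abundance that is scaled for transcript length and for the library's total, so it can be compared between genes but keeps no sequencing depth. Averaged over the 4 libraries 39 members reached 1 TPM, the minimum for a test, and Nop14, listed at 0 in 3 libraries and at 3.24 TPM in DMSO replicate 1, was not tested.

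The libraries came from mouse 2-cell embryos, all wild type and of the BDF1 F2 background (C57BL/6 and DBA/2), from hormone-primed, mated adult BDF1 females. Zygotes were collected 18 h or somewhat later after human chorionic gonadotropin, the hormone that triggers ovulation, and were grown in the embryo medium KSOM for 24 h, either in KSOM alone (control, 2 libraries) or with 2% dimethyl sulfoxide, a common solvent and cryoprotectant (DMSO, 2 libraries). About 50 pooled embryos per group were used, and whether each library held 50 is not given in the sources used here. Replicate labels do not say whether libraries came from separate cultures, so p-values measure only the spread between these samples, which may be technical.

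Pol I transcribes the long precursor of the large ribosomal RNAs in the nucleolus, and Pol III makes 5S ribosomal RNA, transfer RNAs and other short RNAs. Small nucleolar ribonucleoproteins (snoRNPs) modify the precursor, and the small subunit processome and the 60S factors cut and fold it into pre-ribosomal particles. In the early mouse embryo the genome is activated around the 2-cell stage, when compact nucleolar precursor bodies begin to turn into working nucleoli.

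The polymerase genes and the nucleolar genes were both mostly lower in DMSO embryos. A gene was called at a Benjamini-Hochberg adjusted p under 0.05 from limma on log2(TPM + 1), adjusted over the 12038 genes that averaged 1 TPM or more, and all fold changes below are DMSO minus control on that scale, which understates the change of low genes. By this rule 11 of 21 polymerase genes and 10 of 18 nucleolar genes were lower in DMSO and 0 were higher, against 14.1% lower and 6.42% higher among all genes tested. At an unadjusted p under 0.05, 29 of 39 members were lower and 0 higher, beside 24.3% lower and 15.8% higher among all genes tested. The median log2 fold change was -1.26 over the polymerase genes (range -2.34 to -0.05) and -1.05 over the nucleolar genes (range -2.12 to 0.28), beside -0.09 over all genes tested. Both DMSO libraries lay below both control libraries for 17 polymerase and 16 nucleolar genes, an order that 38.7% of all genes tested showed. Of the 2470 genes called in all, 31.3% were higher in DMSO, a share that was 42.9% with median-ratio scaling, 40.3% with TPM rescaled over nuclear genes and 49.0% with quantile normalization. Under those scalings the members below 0 numbered 37, 37 and 36 of 39, beside 38 of 39 as deposited, when 53.2% of all genes tested were below 0. The median member stood at 55.1 and 56.8 TPM in controls, and the median gene tested at 8.87 and 7.73 TPM. Over genes averaging at least 5 TPM, 12 of 17 polymerase and 11 of 18 nucleolar genes were called lower. Of all 7470 genes of that fit 22.5% were.

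These calls rest on few libraries. Without control replicate 1, control replicate 2 or DMSO replicate 1, limma called 0 genes in the whole table, while 22, 21 and 27 of 39 members respectively had an unadjusted p under 0.05, all lower in DMSO. In those fits 16.8%, 15.6% and 17.9% of all genes tested were lower at that threshold. Without DMSO replicate 2, 9 polymerase and 6 nucleolar genes were called lower, beside 10.6% of all genes tested. With no filter on low values (22257 genes tested) limma also called 0 genes, and 30 of 40 members had an unadjusted p under 0.05, all lower, beside 14.6% lower among all genes of that fit. For a single gene, an exact two-sided permutation test with 2 libraries against 2 cannot give a p below 0.333.

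In the 4 libraries the median polymerase gene stood at 35.0 and 36.1 TPM in controls and at 13.5 and 18.9 TPM in DMSO. The median nucleolar gene stood at 177 and 167 TPM in controls and at 50.4 and 72.0 TPM in DMSO. Summed over the group, polymerase TPM were 1269 and 1387 in controls and 556 and 608 in DMSO. Nucleolar sums were 5179 and 5434 in controls and 3044 and 3530 in DMSO. Neither pair of groups overlapped in any of these measures. DMSO replicate 1 was the lower of the DMSO libraries for 27 of 39 members (69.2%), an order found for 45.9% of all genes tested. TPM are shares of a library, so a lower value cannot be told apart from a larger share of other transcripts. Neither the RNA per embryo nor the number of cells in the pool can be read from them.

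**Figure D1:**
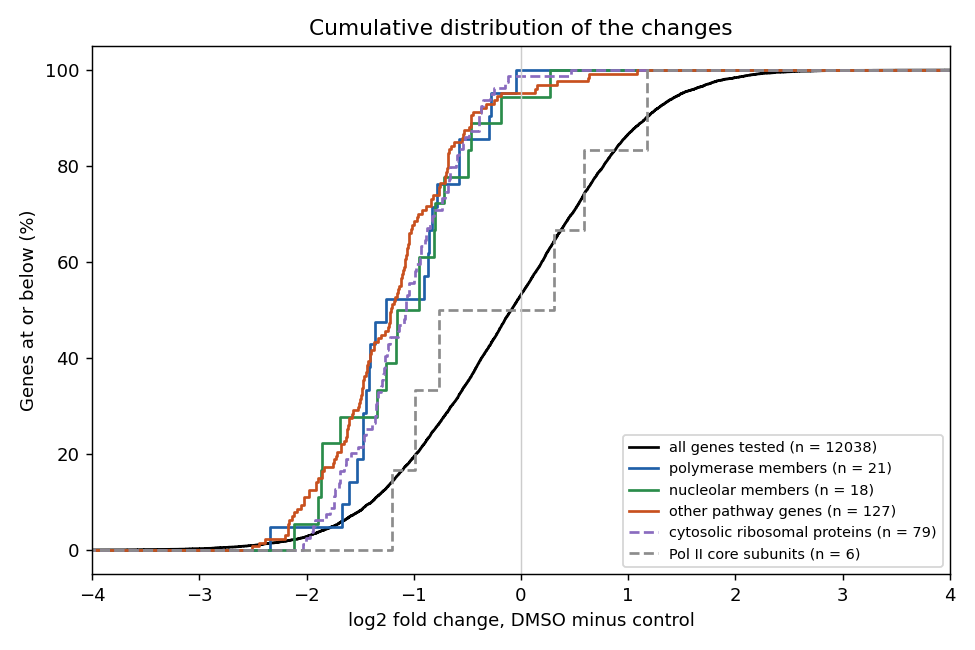
Cumulative distribution of log2 fold changes (DMSO minus control, log2(TPM + 1) scale, horizontal axis) as the percentage of genes at or below each value (vertical axis), for the members and 4 comparison sets. The polymerase and nucleolar curves lie to the left of the curve of all 12038 genes tested, with medians of -1.26 and -1.05 against -0.09.

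The libraries also differed in their makeup. Mitochondrially encoded transcripts took 10.8% and 12.4% of the listed TPM in controls and 15.3% and 21.7% in DMSO, and the 20 most abundant genes took 22.1% and 23.6% in controls and 29.4% and 35.1% in DMSO. When TPM were rescaled over nuclear genes, an alternative chosen after seeing the data, 10 polymerase and 9 nucleolar genes were called lower, beside 11.0% of all genes tested, with medians of -1.16 and -0.96. Of 10 markers of the 2-cell stage 8 had a row, all averaging 1 TPM or more, and their summed TPM were 982 and 718 in controls and 2521 and 1783 in DMSO. Tcstv3, the most abundant, was at 297 and 209 TPM in controls and at 716 and 574 TPM in DMSO. Zscan4d and Obox3 of the 2-cell list overlapped between groups, with log2 fold changes of -0.05 and -0.03. For 10 oocyte genes the sums were 1139 and 724 TPM in controls and 2902 and 2234 TPM in DMSO, most of it in Oosp1, at 877 and 576 TPM in controls and 2086 and 1763 TPM in DMSO. Zp3 and Mos of that list were lower in both DMSO libraries and not called. Of the 2-cell list 4 genes, and of the oocyte list 2 genes, were called higher in DMSO by limma. The part of these differences in the lower polymerase and nucleolar levels was not tested.

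Summed over each list, markers of other cell types and stages were lower than those of the 2-cell embryo and the oocyte, although single genes such as Ovgp1 stood above some of these. The 10 cumulus and granulosa markers summed to between 0.971 and 2.58 TPM in every library, and Inhba and Amh were listed at 0. On average Tnfaip6 was the most abundant, at 1.52 and 0.225 TPM in controls and 0.958 and 0.970 TPM in DMSO. Cyp19a1 was at 0.422 and 0.494 TPM in controls and 1.25 and 1.08 TPM in DMSO, above Tnfaip6 except in control replicate 1. The 5 sperm markers, led by Prm2, summed to 2.84 and 3.38 TPM in controls and 13.5 and 8.57 TPM in DMSO, with Tnp2 listed at 0 and 2 genes called higher. The 4 oviduct markers, led by Ovgp1, summed to 21.1 and 23.8 TPM in controls and 31.4 and 39.7 TPM in DMSO, with 0 called by limma. The 6 morula and blastocyst markers summed to 39.1 and 34.6 TPM in controls and 27.5 and 28.4 TPM in DMSO. Among these Fgf4, a growth factor of the early embryo, was on average the most abundant and was called lower. Without Fgf4 the other 5 summed to 20.99 and 14.3 TPM in controls and 25.7 and 24.7 TPM in DMSO, the opposite order. Nanog, at 7.73 and 7.04 TPM in controls and 11.5 and 14.0 TPM in DMSO, and Gata3 were higher in both DMSO libraries and not called. Krt8, at 6.20 and 4.47 TPM in controls and 2.68 and 3.53 TPM in DMSO, was lower in both and not called, Krt18 overlapped, and Cdx2, under 1 TPM in every library, was not tested. The part of these markers in the member levels was not tested.

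A short DNA word found near many start sites, CCGGAAG (the core bound by ETS-family factors), was searched on both strands in RefSeq windows of 250 bases before to 50 bases after the gene start (GRCm38.p6). A window was matched for 36 of 43 members. These include Polr1a, Gtf3c2, Nop2 and Nop14, which were not tested for expression. The word was present in 14 of the 36 (38.9%): 10 of 20 polymerase genes (50.0%) and 4 of 16 nucleolar genes (25.0%). Gtf3c2 and Nop2 are among the 14. The word was also present in 53 of 113 other genes of the pathway (46.9%). Among the 8479 genes tested that matched a window 20.6% held it. Among all 27025 genes of the RefSeq windows, not limited to the deposited table, 9.93% did. Of all genes called lower in DMSO 31.9% held it, beside 19.3% of those tested and not called and 10.6% of those called higher. Of the tested members with the word, Polr1e, Polr3b, Taf1b, Gtf3c1, Gar1 and Nolc1 were called lower. Polr1c, Polr3g, Rrn3, Taf1c, Gtf3a and Nhp2 also hold it and were not called. Whether the word goes with the call among members was not tested. All 7 members with a row that carry the word within the last 100 bases before the start are shown. Those 100 bases are printed 5′ to 3′ on the gene's strand. Polr3b, Gar1 and Nolc1 among them were called lower and the other 4 were not called. Capitals mark CCGGAAG, or CTTCCGG where the word is on the other strand. Its first letter in these 7 lay between 11 bases (Polr3b) and 43 bases (Gar1) before the start, within the limit set by that choice. Of the 14 members with the word, 10 held it before the start and 4 only after it. In Gtf3c1, called lower and not shown, it lay 223 bases before the start. A match is a run of letters and not a measured binding site.
Polr1c (chr17:46248046-46248145, minus strand): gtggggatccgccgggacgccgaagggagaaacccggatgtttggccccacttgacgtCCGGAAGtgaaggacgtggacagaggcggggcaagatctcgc
Polr3b (chr10:84622198-84622297, plus strand): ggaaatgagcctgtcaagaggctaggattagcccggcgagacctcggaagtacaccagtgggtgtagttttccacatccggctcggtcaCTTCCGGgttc
Polr3g (chr13:81711014-81711113, minus strand): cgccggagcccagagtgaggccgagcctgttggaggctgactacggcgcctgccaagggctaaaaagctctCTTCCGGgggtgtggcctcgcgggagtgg
Taf1c (chr8:119605207-119605306, minus strand): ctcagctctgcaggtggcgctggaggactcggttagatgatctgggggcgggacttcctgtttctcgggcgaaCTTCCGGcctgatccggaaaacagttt
Nhp2 (chr11:51619673-51619772, plus strand): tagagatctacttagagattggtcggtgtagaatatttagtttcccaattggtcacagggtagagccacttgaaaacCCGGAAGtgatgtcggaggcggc
Gar1 (chr3:129831397-129831496, minus strand): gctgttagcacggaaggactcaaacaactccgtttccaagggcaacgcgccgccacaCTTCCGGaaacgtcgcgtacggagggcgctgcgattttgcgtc
Nolc1 (chr19:46075747-46075846, plus strand): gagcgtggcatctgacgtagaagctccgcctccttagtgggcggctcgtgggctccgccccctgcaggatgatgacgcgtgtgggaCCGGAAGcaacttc

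The other words, counted over members and genes tested that matched a window, stood as follows. CACGTG, the E-box read by Myc and Max, was in 16.7% of the members' windows, in 20.4% of those of other pathway genes and in 11.3% of all genes tested. GGGCGG, the GC box, was in 66.7% of members and 65.3% of genes tested. Among the 16 nucleolar windows alone, CACGTG was in 18.8% and GGGCGG in 75.0%. TATAAA, the TATA box, was in 5.56% of members and 9.34% of genes tested. The NRF1 word was in 0 of 36 member windows and in 2.36% of genes tested. The 5 words do not contain each other.

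**Figure D2:**
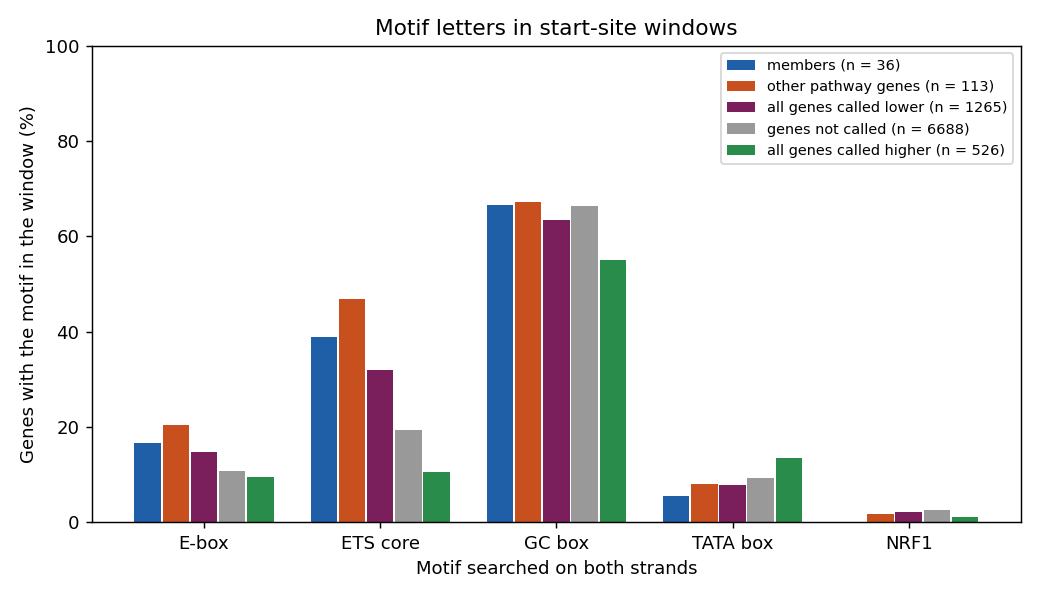
Percentage of genes (vertical axis) whose start-site window holds each of 5 words (horizontal axis), for members, other pathway genes and all genes split by their call. The ETS core stood at 38.9% of members and 46.9% of other pathway genes, against 19.3% of genes not called.

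Pol I subunits came first. Polr1e (chr4:45018583-45036565, plus strand; GRCm38, as are all gene positions here, from GENCODE M21), which encodes a subunit of the Pol I initiation-competent form, was at 345 and 344 TPM in controls and 117 and 143 TPM in DMSO. The controls were nearly equal and both DMSO libraries were far below them. Polr1e fell by 1.40 on the log2 scale (SE 0.25, limma adjusted p = 0.0221), and its mean TPM in controls was 2.65 times that in DMSO. Polr1b, the second largest subunit, which forms the catalytic centre with Polr1a, was at 1.02 and 1.77 TPM in controls and 0.857 and 1.03 TPM in DMSO. These ranges overlapped, and all 4 values were low for a subunit of the same complex.

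The subunits shared by Pol I and Pol III form the assembly platform of both enzymes. Polr1d (chr5:147077050-147111597, plus strand) was at 256 and 310 TPM in controls and 103 and 98.5 TPM in DMSO, with no overlap. It fell by 1.48 (SE 0.25, limma adjusted p = 0.0209). Its partner Polr1c was at 55.1 and 74.0 TPM in controls and 34.7 and 32.7 TPM in DMSO, a log2 fold change of -0.90 that did not pass (limma adjusted p = 0.0615).

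Of the 8 Pol III subunits 5 were called lower. Polr3a (chr14:24448696-24487058, minus strand), the catalytic subunit, was at 49.8 and 46.9 TPM in controls and 16.6 and 17.7 TPM in DMSO. It fell by 1.45 (SE 0.26, limma adjusted p = 0.0224), and each pair of libraries was tight. Polr3c, of the subcomplex that takes part in initiation with Polr3f and Polr3g, was at 35.0 and 32.5 TPM in controls and 12.4 and 8.78 TPM in DMSO. Polr3c fell by 1.60 (SE 0.30, limma adjusted p = 0.0236). The groups stood well apart. Polr3d (chr14:70438757-70443447, minus strand), which pairs with Polr3e, was at 7.65 and 4.62 TPM in controls and 0 and 0.893 TPM in DMSO. Polr3d fell by 2.34 (SE 0.45, limma adjusted p = 0.0240), the lowest fold change of the 39 members, from low levels. Its size is uncertain, since over the alternatives the log2 fold change of Polr3d ran from -4.26 to -1.88.

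Polr3b, the second largest subunit, was called lower as well, at 19.6 and 15.1 TPM in controls and 5.47 and 6.19 TPM in DMSO. Polr3e was also called lower, at 33.2 and 43.4 TPM in controls and 10.5 and 18.9 TPM in DMSO. Its call, 1 of the 5 (limma adjusted p = 0.0428), was lost in 9 of 13 alternatives, all 3 scalings among them, with adjusted p from 0.00649 to 0.252. Polr3g was at 49.6 and 72.2 TPM in controls and 33.5 and 35.4 TPM in DMSO, a log2 fold change of -0.78 that did not pass (limma adjusted p = 0.0978). Its paralog Polr3gl, which takes its place in the enzyme of many differentiated cells, was at 1.61 and 1.41 TPM in controls and 0.932 and 1.31 TPM in DMSO. Polr3g was thus the far more abundant of the paralogs in all 4 libraries. Polr3k, which takes part in RNA cleavage and termination, was at 109 and 135 TPM in controls and 78.4 and 83.1 TPM in DMSO and was not called. Polr3f was the subunit whose groups overlapped, at 8.97 and 9.64 TPM in controls and 9.18 and 3.67 TPM in DMSO.

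On the TPM scale the Pol III subunits differed widely in level, with the small subunits common to all 3 nuclear polymerases set apart here and given with the rest of the pathway. In controls the mean TPM ran from 283 for Polr1d and 122 for Polr3k down to 9.30 for Polr3f, 6.13 for Polr3d, 1.60 for Crcp and 1.51 for Polr3gl. Polr1c and Polr3g could not be separated by their control ranges, nor could Polr3e and Polr3c, nor Crcp and Polr3gl. In DMSO Polr1d at 101 and Polr3k at 80.7 were again first and Polr3d at 0.447 had the lowest mean, with a range that overlapped that of Crcp. Of the Pol I subunits, again without those common to all 3 polymerases, Polr1e at 345, Znrd1 at 297 and Polr1d at 283 were the highest in controls, the latter pair with overlapping ranges. Polr1b was the lowest in both groups, at 1.39 in controls and 0.943 in DMSO.

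**Figure D3:**
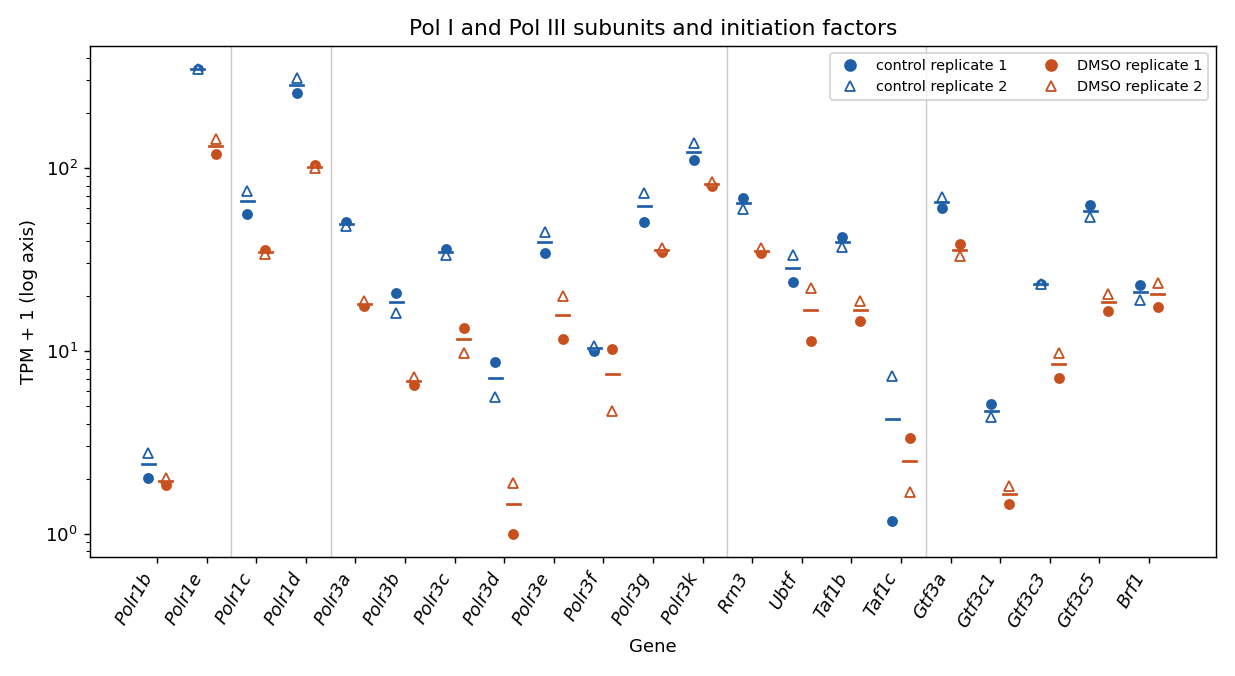
TPM + 1 (vertical log axis) of the 21 polymerase genes with a row in each of the 4 libraries (points), with the mean of each group as a bar, ordered by role between grey lines. Both DMSO libraries lie below both controls for 17 genes, and Polr1b, Polr3f, Taf1c and Brf1 overlap.

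Initiation factors load the polymerases on their genes. Taf1b (chr12:24498359-24558539, plus strand), of the promoter selectivity complex of Pol I, was at 40.9 and 36.1 TPM in controls and 13.5 and 17.8 TPM in DMSO. Taf1b fell by 1.26 (SE 0.29, limma adjusted p = 0.0327), with no overlap. It was the Pol I initiation factor called, of 4. Rrn3, which links Pol I to that complex, was at 67.3 and 58.8 TPM in controls and 33.0 and 35.4 TPM in DMSO and missed the threshold (log2 fold change -0.86, limma adjusted p = 0.0581). Ubtf, which binds along the ribosomal RNA genes, was at 22.6 and 32.4 TPM in controls and 10.3 and 21.1 TPM in DMSO (limma adjusted p = 0.170). Taf1c was low and uneven, at 0.177 and 6.25 TPM in controls and 2.32 and 0.696 TPM in DMSO. Its log2 fold change of -0.30 turned positive in 3 alternatives, and nothing can be said of its direction.

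Of the Pol III initiation factors, 3 of 5 were called lower, all of them subunits of TFIIIC, which binds the internal promoter of transfer RNA genes. Gtf3c5 (chr2:28566311-28583751, minus strand) was at 61.5 and 52.9 TPM in controls and 15.5 and 19.4 TPM in DMSO. Gtf3c5 fell by 1.67 (SE 0.28, limma adjusted p = 0.0209). Gtf3c3 was at 22.3 and 22.1 TPM in controls and 6.12 and 8.77 TPM in DMSO, and fell by 1.48 (SE 0.31, limma adjusted p = 0.0281). No overlap was seen for either. Gtf3c1, the largest subunit, was at 4.09 and 3.34 TPM in controls and 0.447 and 0.832 TPM in DMSO, and fell by 1.53 (SE 0.35, limma adjusted p = 0.0320). The DMSO values of Gtf3c1 were all below 1 TPM.

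Gtf3a (TFIIIA), which guides Pol III to the 5S genes, was at 59.3 and 68.2 TPM in controls and 37.1 and 31.9 TPM in DMSO (log2 fold change -0.87, limma adjusted p = 0.0601). Its value is uncertain, because other genes, chiefly its neighbour Mtif3, hold 55.5% of the 31-base words of its transcripts. Brf1, the TFIIIB subunit that bridges TFIIIC and the polymerase, was at 21.8 and 17.9 TPM in controls and 16.3 and 22.4 TPM in DMSO. The ranges crossed, and its log2 fold change of -0.05 (95% interval -0.78 to 0.68) was positive under all 3 scalings.

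Among the nucleolar genes, the snoRNP proteins were split. Fbl (fibrillarin, chr7:28169710-28179269, plus strand), the methyltransferase of box C/D snoRNPs, was at 233 and 210 TPM in controls and 54.9 and 84.4 TPM in DMSO. Fbl fell by 1.68 (SE 0.29, limma adjusted p = 0.0220), with no overlap. Of the Fbl transcript words 21.8% are shared with other genes, and when Fbl was summed with Tulp4 and Gm5812, which share them, the log2 fold change was -0.85 and the call was lost (limma adjusted p = 0.0526). Nop58 (chr1:59684971-59719044, plus strand), a scaffold of the same particle, was at 773 and 741 TPM in controls and 304 and 375 TPM in DMSO, and fell by 1.16 (SE 0.25, limma adjusted p = 0.0289). Nop56, the other scaffold, was at 179 and 175 TPM in controls and 182 and 252 TPM in DMSO. It was the tested member with a positive fold change, 0.28 (95% interval -0.37 to 0.92, limma adjusted p = 0.463), and 22.4% of its words are shared with other genes.

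In the box H/ACA particle, which turns uridine into pseudouridine, Gar1 (chr3:129824912-129831396, minus strand) was at 175 and 159 TPM in controls and 34.4 and 59.6 TPM in DMSO. Gar1 fell by 1.85 (SE 0.33, limma adjusted p = 0.0221), and the word in its promoter is printed above. Dkc1, the pseudouridine synthase itself, was at 91.5 and 65.6 TPM in controls and 48.8 and 39.7 TPM in DMSO (log2 fold change -0.80, limma adjusted p = 0.0909). Nhp2, an RNA-binding core protein, was at 617 and 719 TPM in controls and 391 and 570 TPM in DMSO (-0.50, limma adjusted p = 0.226). These 3 members were lower in both DMSO libraries, and Gar1 was called. Nop10, the remaining core protein, taken from the rest of the pathway, was at 179 and 216 TPM in controls and 131 and 154 TPM in DMSO and was not called (-0.47, limma adjusted p = 0.214).

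The abundant nucleolar proteins included genes called lower and genes that were not called. Npm1 (nucleophosmin), a histone and ribosome chaperone, was the most abundant member at 1410 and 1791 TPM in controls and 1082 and 1220 TPM in DMSO. It was not called (-0.47, limma adjusted p = 0.212), and 29.4% of its words are shared with other genes. Ncl (nucleolin), which binds nascent ribosomal RNA, was at 589 and 505 TPM in controls and 529 and 433 TPM in DMSO. The Ncl ranges overlapped, and its log2 fold change of -0.19 (95% interval -0.79 to 0.42) was 0.024 under quantile normalization.

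Gnl3 (nucleostemin, chr14:31012433-31019152, minus strand), a GTP-binding nucleolar protein of dividing cells, was at 237 and 280 TPM in controls and 52.0 and 94.2 TPM in DMSO. Gnl3 fell by 1.86 (SE 0.34, limma adjusted p = 0.0224). Nolc1 (chr19:46075863-46085530, plus strand), a chaperone of snoRNPs, was at 303 and 253 TPM in controls and 124 and 123 TPM in DMSO. It fell by 1.16 (SE 0.25, limma adjusted p = 0.0289). Tcof1 (treacle), a scaffold of Pol I factors, was at 54.5 and 56.8 TPM in controls and 28.4 and 28.2 TPM in DMSO, and fell by 0.95 (SE 0.26, limma adjusted p = 0.0450). The Tcof1 call was lost in 10 of 13 alternatives, all 3 scalings among them, with adjusted p from 0.0130 to 0.254. The DMSO values of Nolc1 and Tcof1 were nearly equal between libraries, and no group overlapped for these 3 genes.

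In the small subunit processome Utp20, a large scaffold, was at 11.5 and 11.4 TPM in controls and 3.93 and 3.87 TPM in DMSO, and fell by 1.34 (SE 0.30, limma adjusted p = 0.0314). Bysl (bystin), needed for 40S maturation, was at 26.7 and 20.6 TPM in controls and 9.44 and 9.04 TPM in DMSO, and fell by 1.26 (SE 0.29, limma adjusted p = 0.0338). Rrp9, the protein of the U3 snoRNP, was at 218 and 194 TPM in controls and 120 and 130 TPM in DMSO (-0.72, limma adjusted p = 0.0774). None of these 3 genes overlapped between groups.

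Of the 60S group, Ddx21 and Wdr12 had the lowest fold changes among the nucleolar genes. Gnl3 (-1.86) and Gar1 (-1.85), of other groups, were close to Wdr12 (-1.90). Wdr12 (chr1:60069785-60098645, minus strand) belongs with Pes1 and Bop1 to the PeBoW complex, and was at 54.2 and 54.0 TPM in controls and 11.6 and 16.4 TPM in DMSO. Wdr12 fell by 1.90 (SE 0.29, limma adjusted p = 0.0188), and controls had 3.86 times the mean TPM of DMSO. Its partners were lower in both DMSO libraries and were not called. Pes1 was at 56.1 and 43.9 TPM in controls and 24.1 and 26.3 TPM in DMSO (-0.95, limma adjusted p = 0.0536, with 34.8% of its words shared with other genes). Bop1 was at 52.1 and 49.8 TPM in controls and 24.7 and 33.0 TPM in DMSO (-0.81, limma adjusted p = 0.0802). The control levels of the 3 partners were close, between 43.9 and 56.1 TPM. Ddx21 (chr10:62580251-62602281, minus strand), an RNA helicase that senses Pol I activity and takes part in precursor processing, was at 99.1 and 106 TPM in controls and 15.8 and 32.7 TPM in DMSO. Ddx21 fell by 2.12 (SE 0.37, limma adjusted p = 0.0221), the lowest fold change of the nucleolar genes, and controls had 4.22 times the mean TPM of DMSO.

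**Figure D4:**
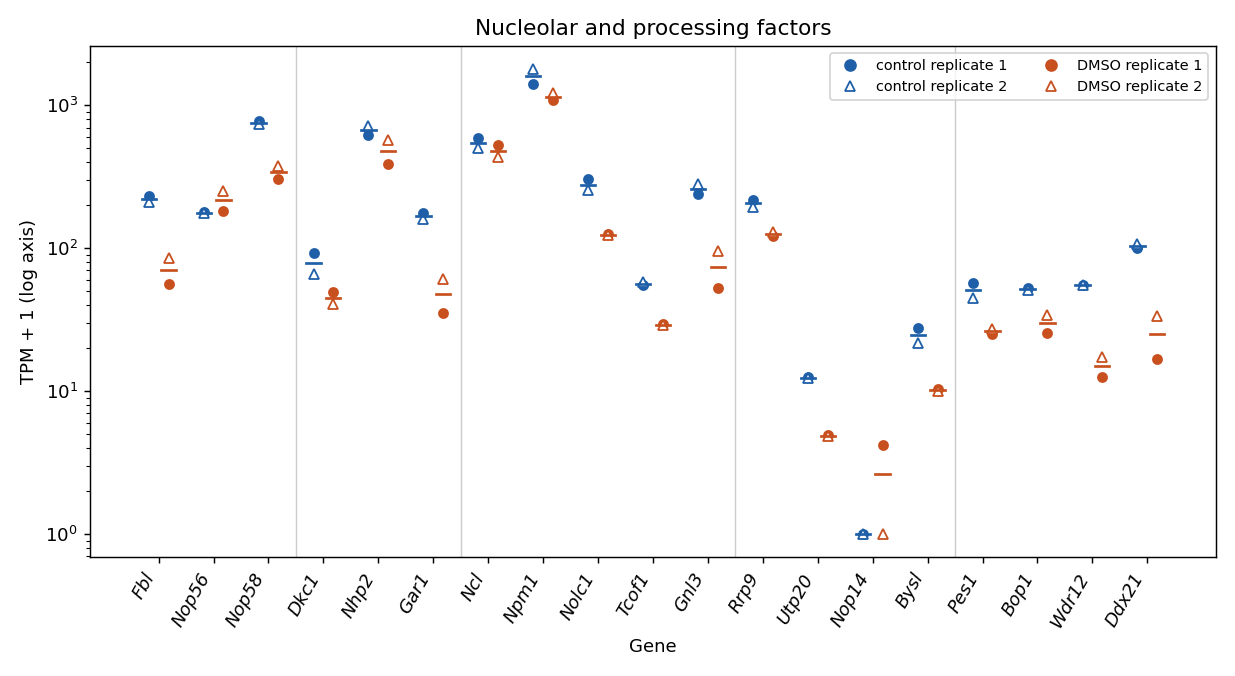
TPM + 1 (vertical log axis) of the 19 nucleolar genes with a row in each of the 4 libraries (points), with the mean of each group as a bar, ordered by role between grey lines. Npm1 stands highest in all libraries, Nop56 is higher in DMSO, and Ncl overlaps.

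**Figure D5:**
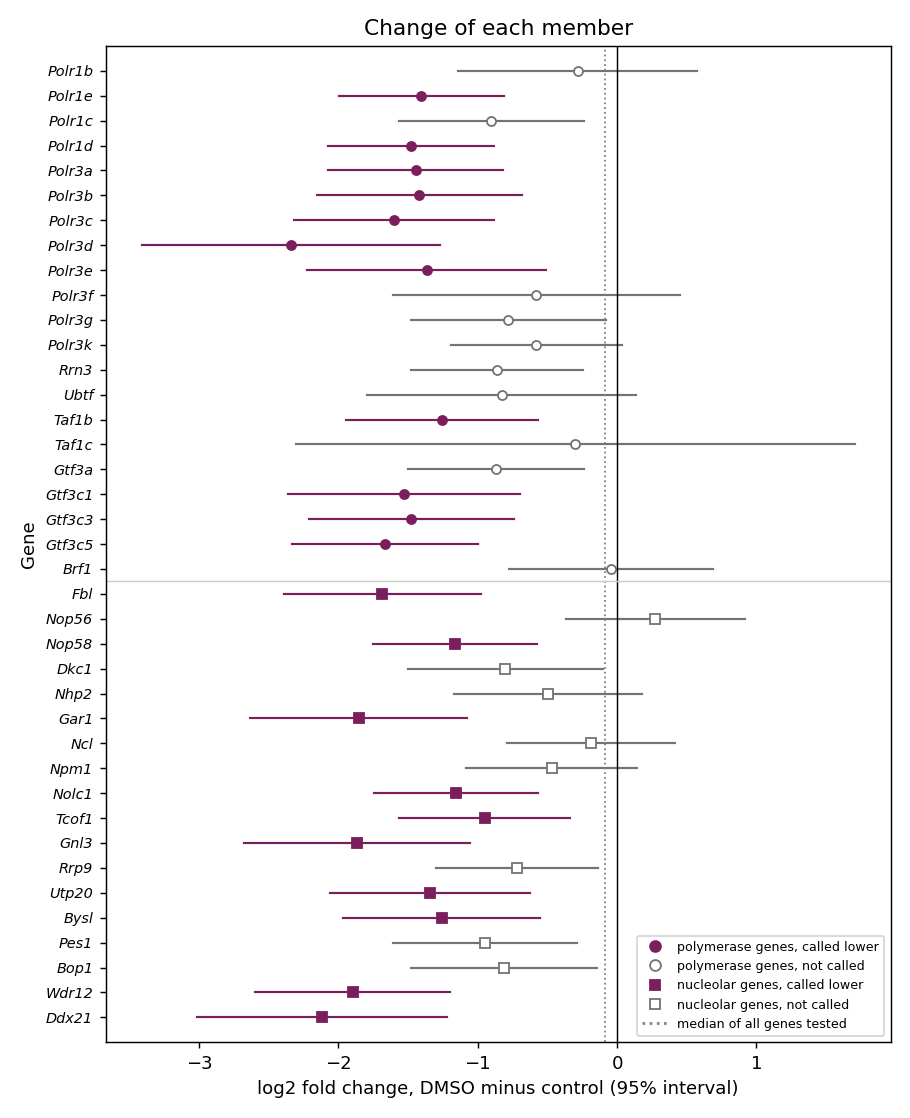
Log2 fold change (DMSO minus control, horizontal axis) of each of the 39 members tested with its 95% interval, filled where called lower. The dotted line is the median of all genes tested, -0.09, and the 21 filled symbols lie between -2.34 and -0.95.

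The rest of the pathway was taken from a list of 137 other genes, of which 128 had a row and 127 were tested. Of these 80 were called lower and 0 higher, 121 had a fold change below 0, and the median was -1.22, beside 14.1% called lower, 6.42% called higher and 53.2% below 0 among all genes tested. Under quantile normalization 45 were called lower, beside 9.31% of all genes tested. At an unadjusted p under 0.05, 98 were lower and 1 higher (24.3% and 15.8% of all genes tested). By role, 5 of 7 Pol I genes, 3 of 5 shared subunits, 4 of 14 Pol III genes, 6 of 8 snoRNP genes, 33 of 44 small subunit genes and 29 of 49 large subunit genes were called lower. Leaving out any of the libraries control replicate 1, control replicate 2 or DMSO replicate 1 took the 80 calls to 0, while 78, 75 and 84 of these genes had an unadjusted p under 0.05 in the lower direction.

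Among them the lowest called was Zfp593, a pre-60S factor that the list holds among the snoRNP genes, at 15.1 and 21.5 TPM in controls and 1.71 and 3.12 TPM in DMSO (-2.51, limma adjusted p = 0.0181), uncertain because 71.5% of its words occur in other genes. Polr2h, a subunit of all 3 nuclear polymerases, was at 273 and 335 TPM in controls and 42.6 and 76.5 TPM in DMSO, and fell by 2.38 (limma adjusted p = 0.0181). Znrd1, the small Pol I subunit that takes part in RNA cleavage, was at 286 and 309 TPM in controls and 48.6 and 83.8 TPM in DMSO, and fell by 2.20. For these 3 genes the groups stood far apart, and DMSO replicate 1 was the lowest library. The small subunit processome genes Wdr46 and Utp23 followed. Wdr46 was at 39.7 and 41.8 TPM in controls and 6.45 and 10.5 TPM in DMSO and fell by 2.18. Utp23 was at 253 and 231 TPM in controls and 39.8 and 69.8 TPM in DMSO and fell by 2.17.

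With 0 called higher, the called pathway genes of highest fold change were those that fell least. Bdp1, a TFIIIB subunit, was at 36.8 and 39.8 TPM in controls and 19.1 and 18.4 TPM in DMSO, and fell by 0.99 (limma adjusted p = 0.0442). Mak16, a 60S factor with 33.8% of its words shared with other genes, was at 325 and 279.7 TPM in controls and 142 and 156 TPM in DMSO, and fell by 1.01. The groups of both genes were apart. Pno1, of 40S maturation, was at 319.6 and 342 TPM in controls and 134 and 194 TPM in DMSO, and fell by 1.03. The processome genes Wdr3 and Imp3 came next. Wdr3 was at 40.6 and 42.4 TPM in controls and 16.9 and 22.5 TPM in DMSO, and fell by 1.05. Imp3 was at 382 and 338 TPM in controls and 164 and 179 TPM in DMSO, and fell by 1.07. For these 3 genes as well both DMSO libraries lay below both controls.

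The other small subunits common to the 3 nuclear polymerases were lower to differing degrees. Polr2e was at 344 and 356 TPM in controls and 151 and 176 TPM in DMSO, and fell by 1.10 (limma adjusted p = 0.0310). Polr2k was at 285 and 358 TPM in controls and 97.9 and 155 TPM in DMSO, and fell by 1.37 (limma adjusted p = 0.0320). Polr2f, the most abundant at 946 and 1026 TPM in controls, was at 587 and 692 TPM in DMSO and was not called (-0.63, limma adjusted p = 0.105). Polr2l was at 231 and 291 TPM in controls and 141 and 177 TPM in DMSO and was not called either (-0.71, limma adjusted p = 0.0995). All 5 were lower in both DMSO libraries. Other genes share 27.3% of the words of Polr2k and 27.3% of those of Polr2l.

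As comparison groups, the RNA polymerase II core subunits and the cytosolic ribosomal proteins were read from the same fit. Of 6 Pol II core subunits tested 2 were called lower and 0 higher, 3 had fold changes below 0, and the median was -0.23. Of 79 ribosomal protein genes tested 34 were called lower and 0 higher, 78 had fold changes below 0, and the median was -1.07. Among all genes tested 14.1% were called lower and 53.2% had fold changes below 0. Ribosomal protein values are uncertain, since many processed copies of these genes share their sequence. The differences between these groups and the members were not tested.

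Among the snoRNA host genes and Pol III transcripts looked for, Taf1d, a host gene that also encodes a Pol I selectivity subunit, had a row. It was at 156 and 174 TPM in controls and 175 and 185 TPM in DMSO (0.13, limma adjusted p = 0.708). The other transcripts of that list were not analysed here.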

How the data were processed

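RNA from control and DMSO 2-cell embryos (2 libraries each) was measured by RNA-seq after low-input cDNA synthesis. The authors quantified transcripts with kallisto against an Ensembl GRCm38 transcriptome and summed them to genes with tximport, and they deposited 1 table of TPM, which keeps no depth. The submitters' processing notes also name STAR, SAMtools and bedtools, with no role. Genes were named from GENCODE M21 (29668 of 30049 matched). Groups followed the labels, and 0 value columns were left out.

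The test was limma (version 3.58.1, R 4.3.3) with a mean-variance trend, fitted to log2(TPM + 1) of all 4 libraries with no block. Genes averaging under 1 TPM were left out, and p-values were adjusted by Benjamini-Hochberg. The study tested counts with DESeq2, which TPM do not allow. The fit was tested on simulated data. Words of 31 bases shared between GENCODE M21 transcripts marked uncertain genes. Alternatives were another pseudocount or filter, no trend, other scalings, a replicate block, and leaving out each library.

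The members and lists were chosen with earlier results of these data known. Full values are given for up to 3 called members of each role in order of adjusted p, and for the 5 called pathway genes of lowest and of highest fold change, with the shared subunits and Polr3gl. Other members are given by value. Figures used matplotlib 3.10.9.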

Additional observations from a re-analysis of the deposited data

How the results depend on the processing

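Calls of genes depended on the number of libraries and genes in the fit. Leaving out each library in turn, where limma assumes that the lone library of a group varies like the other group, moved the calls from 0 to 1276 lower, 0 to 607 higher and 0 to 1883 in all, and from 0 to 9 lower polymerase genes, 0 to 6 lower nucleolar genes and 0 to 71 lower genes of the rest of the pathway. The calls remained above 0 without DMSO replicate 2 and were 0 in the other 3 cases, when the smallest adjusted p over all genes lay between 0.0558 and 0.0873. The medians stayed between -1.37 and -1.07 for polymerase genes, between -1.16 and -0.99 for nucleolar genes, and between -1.37 and -1.003 for the rest of the pathway. Without a filter on low values, 22257 genes were tested, the smallest adjusted p was 0.102 and the calls were 0 in all sets, lower and higher. At an unadjusted p under 0.05 this fit had 5368 genes.

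Quantile normalization gave 1121 lower and 1076 higher calls, with 45 lower genes of the rest of the pathway and medians of -0.81 for nucleolar genes and -0.97 for the rest of the pathway. Over all genes tested the median log2 fold change was -0.09, and it was -0.01 with median-ratio scaling, 0.01 with quantile normalization and -0.01 with TPM rescaled over nuclear genes. The other alternatives for the counts (a pseudocount of 0.1, a mean of at least 5 TPM, no trend, median-ratio scaling) stayed within 1.5 times of the main counts for polymerase genes (9 to 12 lower) and nucleolar genes (9 to 11 lower), while the share of all genes tested that was called lower ran from 10.5% with median-ratio scaling to 22.5% under the stricter filter of 5 TPM. In the rest of the pathway, Maf1, the repressor of Pol III, was at 4.72 and 5.70 TPM in controls and 10.8 and 13.5 TPM in DMSO. Its log2 fold change was 1.08 and its limma adjusted p 0.0536. It gave the 1 higher call of that list with a mean of at least 5 TPM (limma adjusted p = 0.0468) and with TPM rescaled over nuclear genes (0.0488). With the replicate block the 1 higher call was also Maf1 (0.0157). Over the alternatives that kept every library its limma adjusted p ran from 0.0157 to 0.124. Its log2 fold change over all alternatives ran from 0.93 to 1.23. Maf1 was chosen after its values were seen.

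Replicate numbers are shared between the groups, but the labels tie them to no common batch. Libraries with the same number deviated from the group averages with r = 0.354 across 12038 genes, which are not independent replicates and are described only. With the replicate block limma called 2981 genes lower and 2151 higher (5132 in all), 17 polymerase and 16 nucleolar genes lower beside 24.8% of all genes tested, and 101 lower and 1 higher gene of the rest of the pathway.

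Beyond the 4 alternatives that ended every call, the calls of Polr3b, Gtf3c1, Utp20 and Bysl were lost without DMSO replicate 2, that of Polr3d with a pseudocount of 0.1, that of Taf1b with quantile normalization, and that of Nolc1 both with quantile normalization and without DMSO replicate 2. Polr3e, Tcof1 and Fbl are described with their values.

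The direction of 3 members that were not called turned. Taf1c was at 0.066 with a pseudocount of 0.1, 0.18 without DMSO replicate 2 and 1.01 without control replicate 2, with a range of -1.61 to 1.01 when each library was left out. Brf1 was at 0.052 with median-ratio scaling, 0.14 with quantile normalization, 0.048 with TPM rescaled over nuclear genes, 0.17 without DMSO replicate 1 and 0.09 without control replicate 1, with a range of -0.26 to 0.17. Ncl was at 0.024 with quantile normalization. The cause of these changes was not tested. TPM keep no depth, so no limit of detection was set.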
